A study of Saccharomyces cerevisiae with 9 samples.

Results

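Yeast takes up glucose by facilitated diffusion through the Hxt transporters, a family of sugar porters of the plasma membrane. Hxt1 and Hxt3 have low affinity and carry glucose when it is plentiful, Hxt4 and Hxt5 are of intermediate affinity, and Hxt2, Hxt6 and Hxt7 have high affinity and are made mainly when glucose runs low. Gal2 carries galactose and also glucose with high affinity, whereas *HXT8* and *HXT10* are seldom expressed in laboratory cultures. Glucose acts on these genes through the sensors Snf3 and Rgt2, which lead to the release of the repressor Rgt1 from the promoters, and through the repressor Mig1, which shuts off high-affinity transporters when glucose is abundant and is relieved by the Snf1 kinase when glucose runs low.

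The mRNAs of 10 hexose transporter genes, *HXT1* to *HXT8*, *HXT10* and *GAL2*, were followed by RNA-Seq in 3 yeast strains. They were chosen by locus (YHR094C for *HXT1*, YMR011W *HXT2*, YDR345C *HXT3*, YHR092C *HXT4*, YHR096C *HXT5*, YDR343C *HXT6*, YDR342C *HXT7*, YJL214W *HXT8*, YFL011W *HXT10* and YLR081W *GAL2*) as the spliced-mRNA entries of the table of expected counts, 10 of 6587 such entries and of 6952 entries in all. Of the 10 genes, 2 were counted as low affinity (*HXT1* and *HXT3*), 2 as intermediate (*HXT4* and *HXT5*), 4 as high affinity (*HXT2*, *HXT6*, *HXT7* and *GAL2*) and 2 as seldom used (*HXT8* and *HXT10*). All 3 strains are haploid MATa cells of the W303 background, which share mutant alleles of *URA3*, *LEU2*, *HIS3*, *TRP1*, *ADE2* and *CAN1*, and they were grown in rich glucose medium (YEPD). WT carries both *PAB1*, which encodes the cytoplasmic poly(A)-binding protein, and *PBP1*, which encodes a protein that binds Pab1. The *pbp1Δ* strain carries *pbp1::URA3*, and the *pab1Δpbp1Δ* strain carries *pbp1::URA3* with *pab1::kanMX*, since cells without Pab1 live only when a suppressor such as *pbp1Δ* is present. The *pab1Δpbp1Δ* strains were made from 1 of the *pbp1Δ* isolates, so *pbp1Δ* is the control for the loss of Pab1. There were 3 libraries of each strain, which by the study's methods came from 3 isolates of each mutant and were technical replicates of WT, so p-values against WT rest on technical spread on the WT side.

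Total expected counts lay between 73062345 and 100361368 in the 9 libraries. The deleted genes followed the labels, with 22.01 to 50.04 counts of *PAB1* in *pab1Δpbp1Δ* libraries against at least 108388 in the others, and 66 to 143 counts of *PBP1* in the mutants against at least 22789 in WT. Markers of MATa cells (5 of 5 genes, *STE2* among them) summed to 1964 to 3447 FPKM in *pab1Δpbp1Δ*, 4092 to 4777 in *pbp1Δ* and 4115 to 4418 in WT. The 3 markers of the other mating type summed to 12.5 to 16.5, 2.95 to 3.44 and 1.59 to 1.76 FPKM in the same order, and their part in the results was not tested. FPKM is fragments per kilobase of transcript, scaled to all fragments of the library, a level per length that allows genes to be compared. CPM values are counts scaled to a common library total by TMM, which sets the typical gene equal between libraries, and the fold changes rest on that scale. The spread between libraries of 1 strain, as the coefficient of biological variation, was 5.91% in WT, 7.31% in *pbp1Δ* and 21.8% in *pab1Δpbp1Δ*. By the study's methods the WT value is a spread of technical replicates, and those of the mutants are spreads between isolates.

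Within the coding sequences, the reads of *HXT6* and *HXT7* could hardly be told apart. Their untranslated regions were not compared. Both genes lie on the minus strand of chromosome IV (R64), *HXT6* at 1159608-1161320 and *HXT7* at 1154216-1155928, 3679 bases apart, and each is a single exon of 1713 coding bases. Their coding sequences differed at 3 positions, counted from the A of the start codon with the *HXT6* base first: T1632C, G1666A and T1677C. G1666A makes the only protein change, A556T, and the proteins were 99.8% identical over 570 residues. The stretch that holds all 3 is shown because no other part of the coding sequence can assign a read to 1 of these genes, with the differing bases in capitals. It spans coding positions 1621 to 1688, at chrIV:1159633-1159700 for *HXT6* and chrIV:1154241-1154308 for *HXT7*, minus strand, and was read from the RefSeq S288C reference.
HXT6: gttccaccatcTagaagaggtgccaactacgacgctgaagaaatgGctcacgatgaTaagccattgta
HXT7: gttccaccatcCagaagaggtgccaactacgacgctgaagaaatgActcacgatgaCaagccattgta

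Of the 1639 windows of 75 bases, the read length, in the *HXT6* coding sequence, 1557 occurred unchanged in another gene. *HXT7* was shared to the same degree, and only 82 windows of each gene were its own. Of the *HXT3* windows 8.16% were shared, mostly with *HXT6* and *HXT7*. *HXT1* and *HXT5* shared 45 windows, and *HXT3* and *HXT4* shared 4. *HXT2*, *HXT8*, *HXT10* and *GAL2* had no window in common with another gene. The split of reads between *HXT6* and *HXT7* is thus an estimate of the counting program, and their sum is given beside them. Hxt1 and Hxt3 of the low-affinity class were 86.6% identical in protein sequence, and Hxt4, of intermediate affinity, was 83.5% identical to Hxt7. Hxt2 and Hxt10 were 79.4% identical, and Hxt2 was 65.8% identical to Hxt1.

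*HXT3* was the most abundant transporter mRNA in every strain. In WT its FPKM was 402, 342 and 327 in replicates 1 to 3, and *HXT1* followed with 219, 194 and 200. The high-affinity *HXT2* came next with 180, 151 and 150 FPKM, before *HXT7* with 82.3 to 98.4. *HXT4* stood at 40.8 to 54.1, and then levels dropped to 3.76 to 4.84 for *HXT6*, 1.41 to 1.55 for *HXT8* and 0.63 to 0.75 for *HXT5*. *GAL2*, at 0.20 to 0.22 FPKM, and *HXT10*, at 0.09 to 0.20, were lowest and met at the edge of their ranges. All other neighbours in the WT order had ranges that did not overlap. *HXT3*, *HXT1*, *HXT2*, *HXT7* and *HXT4* thus carried nearly all transporter mRNA, and *GAL2*, *HXT5*, *HXT8* and *HXT10* stood at 1.55 FPKM or below.

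The order moved with the strain. In *pbp1Δ*, *HXT2* stood at 203, 185 and 175 FPKM and *HXT1* at 176, 166 and 157, so that *HXT2* was second and the ranges of the pair met. *HXT3* was first at 340 to 432, and *HXT7*, at 74.2 to 88.0, and *HXT4* followed *HXT1*, the latter at 41.2 to 49.0. In *pab1Δpbp1Δ*, *HXT3* was first at 285 to 351 and *HXT1* second at 177 to 226, while *HXT7*, at 39.95 to 75.53, and *HXT2*, at 33.6 to 49.3, overlapped each other in the next places. *HXT4* followed at 12.6 to 19.7 FPKM, and *HXT6* at 7.34 to 8.81 was close below it without overlap. *HXT8* (2.95 to 6.58) and *HXT10* (2.04 to 3.27) overlapped, *HXT5* stood at 1.01 to 1.59, and *GAL2* was last at 0.47 to 0.78.

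**Figure D1:**
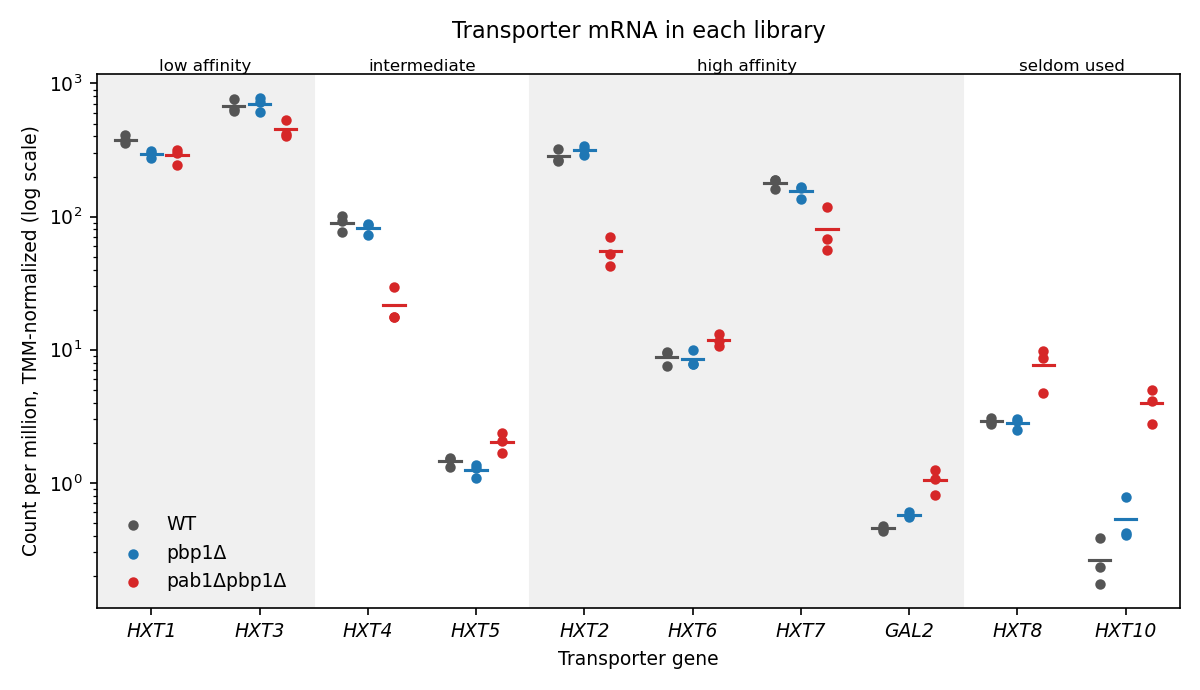
TMM-normalized counts (CPM) of each transporter mRNA on a log axis, with 1 point per library (3 per strain) and a line at the mean. *HXT2* and *HXT4* of *pab1Δpbp1Δ* (red) lie below all WT and *pbp1Δ* points, *HXT8* and *HXT10* lie above them, and *HXT1* overlaps with *pbp1Δ*.

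The loss of Pab1 was addressed by *pab1Δpbp1Δ* against *pbp1Δ*. By the study's methods *pab1Δpbp1Δ* cells doubled more slowly in YEPD than WT and *pbp1Δ* cells, which had the same doubling time. The part of growth rate in the changes was not tested. The mRNAs of *HXT2*, *HXT4* and *HXT3* fell in *pab1Δpbp1Δ*, with log2 fold changes of -2.53, -1.94 and -0.65, and those of *HXT10* and *HXT8* rose, with 2.89 and 1.45. For *HXT1* no difference was detected. In all, 2 of the 10 genes rose and 3 fell at an adjusted p below 0.01, beside 34.8% of the 6573 entries tested (18.0% higher and 16.7% lower). Libraries of the strains did not overlap in CPM for 9 of the 10, all but *HXT1*, beside 64.7% of all entries. At an unadjusted p below 0.05 the same 9 differed, beside 60.9% of entries. Both fold changes and CPM are relative to the mRNA of the culture, since no spike-in was used, and in such bulk samples less RNA per cell and fewer cells that express a gene cannot be told apart.

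Among the high-affinity genes, *HXT2* had 340, 322 and 293 CPM in the *pbp1Δ* libraries and 69.9, 52.7 and 42.6 in *pab1Δpbp1Δ*. The ranges were far apart, and the log2 fold change was -2.53 ± 0.19 (SE, 3 libraries per strain; edgeR adjusted p = 0.00011). A change of that size or more was seen in few genes, since *HXT2* stood at percentile 97.7 of absolute fold change over all entries. *HXT7* had 163, 168 and 137 CPM in *pbp1Δ* against 118, 67.4 and 56.0 in *pab1Δpbp1Δ*, where replicate 1 was well above the other two. Its log2 fold change of -0.95 (95% interval -1.55 to -0.35) did not pass, at an adjusted p of 0.0157, but passed at -1.34 and 5.67e-06 without *pab1Δpbp1Δ* replicate 1. With any other library left out it missed, at adjusted p of 0.0287 to 0.0569. *HXT6*, with 10.02, 7.83 and 7.88 CPM in *pbp1Δ* and 11.7, 13.1 and 10.6 in *pab1Δpbp1Δ*, differed by 0.46 on the log2 scale without passing (adjusted p = 0.0377). The sum of *HXT6* and *HXT7* does not depend on the split of reads between the pair, but still on that of reads shared with *HXT3*. Its log2 fold change was -0.83 ± 0.23 and also missed the threshold (adjusted p = 0.0176). Without *pab1Δpbp1Δ* replicate 1 the sum passed at -1.17, and with any other library left out it missed. DESeq2 called *HXT7* (adjusted p = 0.0012) and the sum (0.0022) in the same 6 libraries.

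*HXT6* was credited with 4.67% ± 0.19 of the counts of the *HXT6* and *HXT7* pair in WT and 5.24% ± 0.70 in *pbp1Δ* (SD, n = 3). In *pab1Δpbp1Δ* the share was 13.7% ± 4.1, with 9.01%, 16.3% and 15.9% in the 3 libraries, all above those of the other strains. Reads over the 3 differing bases alone can set this share in the coding sequence, and its cause was not tested. *GAL2*, the galactose permease, had 0.56 to 0.60 CPM in *pbp1Δ* and 0.81, 1.26 and 1.07 in *pab1Δpbp1Δ*. Its log2 fold change of 0.87 (95% interval 0.26 to 1.47) missed the threshold at an adjusted p of 0.0236, and passed at 1.02 and 0.0036 without *pab1Δpbp1Δ* replicate 1. With any other library left out *GAL2* missed the threshold.

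Of the low-affinity genes *HXT3* fell, and no difference was detected for *HXT1*; the difference between their fold changes was not tested. *HXT1* had 309, 302.5 and 274 CPM in *pbp1Δ* and 317, 246 and 301 in *pab1Δpbp1Δ*. The ranges overlapped, and the log2 fold change of -0.04 had a 95% interval of -0.33 to 0.25 (adjusted p = 0.82). *HXT3* had 779, 729 and 612 CPM in *pbp1Δ* against 535, 405 and 414 in *pab1Δpbp1Δ*, which did not overlap. Its log2 fold change was -0.65 ± 0.16 (adjusted p = 0.0098), a call just inside the threshold. The call was lost without *pbp1Δ* replicate 1, 2 or 3 (adjusted p = 0.046, 0.0422 and 0.0197) and without *pab1Δpbp1Δ* replicate 2 or 3 (0.0286 and 0.0385), with log2 fold changes between -0.74 and -0.57. It was also lost by a narrow margin with RLE normalization (adjusted p = 0.0106) and with entries of at least 10 counts in every library (0.0109). The *HXT3* call was kept by DESeq2 on the same libraries (adjusted p = 0.00033) and on all 9 libraries (4.5e-05). In edgeR it was kept on all 9 libraries (0.0032), with the replicate number as a block (0.0059) and without *pab1Δpbp1Δ* replicate 1 (0.00018).

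Within a library the FPKM ratio of *HXT1* to *HXT3* needs no scaling between libraries. It was 0.407, 0.426 and 0.461 in *pbp1Δ* and 0.608, 0.623 and 0.745 in *pab1Δpbp1Δ*, and in WT 0.543, 0.568 and 0.612. The *pab1Δpbp1Δ* values lay above all *pbp1Δ* values, and *pbp1Δ* values lay below all WT values, while WT and *pab1Δpbp1Δ* met at their edges.

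The intermediate *HXT4* fell and *HXT5* did not pass. *HXT4* had 86.4, 88.5 and 72.4 CPM in *pbp1Δ* and 29.4, 17.5 and 17.5 in *pab1Δpbp1Δ*, where again replicate 1 was the highest. The log2 fold change was -1.94 ± 0.22 (adjusted p = 0.00042), at percentile 95.2 of absolute fold change. *HXT5*, which in other conditions is made by slowly growing and starved cells, had 1.09, 1.29 and 1.36 CPM in *pbp1Δ* and 1.67, 2.08 and 2.35 in *pab1Δpbp1Δ*. Its log2 fold change of 0.70 (95% interval 0.17 to 1.24) gave an adjusted p of 0.0333, and 0.82 with 0.0064 without *pab1Δpbp1Δ* replicate 1. With any other library left out *HXT5* missed the threshold.

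The seldom used genes rose from a low level. *HXT10* had 40, 34 and 56 expected counts in *pbp1Δ*, 17, 14 and 25 in WT, and 500, 395 and 271 in *pab1Δpbp1Δ*. All 3 *pab1Δpbp1Δ* libraries were several times above every other library, and the log2 fold change was 2.89 ± 0.36 (adjusted p = 0.00061), at percentile 98.7. *HXT8* had 3.04, 2.51 and 2.94 CPM in *pbp1Δ* and 4.70, 9.76 and 8.69 in *pab1Δpbp1Δ*, with a log2 fold change of 1.45 ± 0.28 (adjusted p = 0.0037). This call was lost without *pbp1Δ* replicate 1, 2 or 3 (adjusted p = 0.02, 0.022 and 0.0158) and without *pab1Δpbp1Δ* replicate 3 (0.0181), while the log2 fold change stayed between 1.24 and 1.70. The *HXT8* call was kept in 14 of 14 alternative settings that left out no library, DESeq2 on the same libraries among them (adjusted p = 1.7e-06). Even after the rise, *HXT8* and *HXT10* made up 0.83% ± 0.38 and 0.42% ± 0.09 of the transporter FPKM.

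The scale between libraries bore on these values. TMM set the median log2 fold change of all entries at 0.03 and upper-quartile normalization at 0.21, and the share of higher calls went from 51.9% to 71.7%. In limma on log2(FPKM + 1) without further scaling, over entries with a mean FPKM of at least 1, the median was 0.32 and 82.9% of calls were higher, where the scale, the filter and the test all differ from the edgeR fit. *HXT1* then read 0.15 by upper quartile and 0.30 by limma on log2(FPKM + 1), so it changed sign with the scale, but relative to the median of all entries it was -0.07 under both TMM and upper quartile. *HXT3* was not called by upper quartile or limma either, at -0.47 and -0.31. Relative to the median of all entries, *HXT3* was -0.68 under both TMM and upper quartile. *HXT2* and *HXT4* stayed lower, and *HXT8* and *HXT10* higher, in each of these fits.

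**Figure D2:**
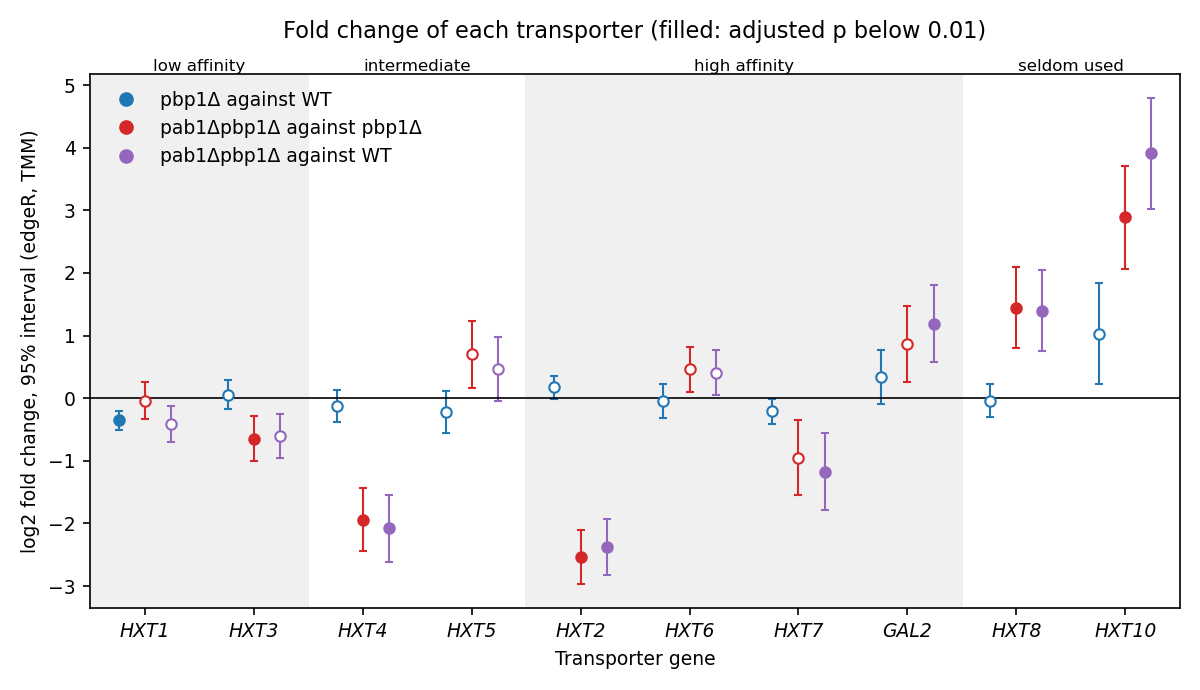
Log2 fold change of each transporter mRNA in the 3 comparisons of strains, from edgeR with TMM, with 95% intervals; filled points have an adjusted p below 0.01. In *pab1Δpbp1Δ* against *pbp1Δ* (red) *HXT2* and *HXT4* reach -2.53 and -1.94 and *HXT10* reaches 2.89, while *HXT1* stays at -0.04.

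The high-affinity and low-affinity mRNAs were weighed against each other within each library, as the summed FPKM of *HXT2*, *HXT6*, *HXT7* and *GAL2* over that of *HXT1* and *HXT3*. The ratio was 0.453, 0.475 and 0.448 in WT, 0.488, 0.499 and 0.511 in *pbp1Δ*, and 0.235, 0.207 and 0.154 in *pab1Δpbp1Δ*. The means were 0.459 ± 0.014, 0.499 ± 0.012 and 0.199 ± 0.041 (SD, n = 3), and no strain overlapped with another. The low-affinity sum was 561 ± 52 FPKM in WT, 553 ± 56 in *pbp1Δ* and 518 ± 52 in *pab1Δpbp1Δ*, with overlapping ranges. These sums are not rescaled between strains, and on log2(FPKM + 1) the median entry rose by 0.32 from *pbp1Δ* to *pab1Δpbp1Δ*. On the TMM scale, mean *HXT3* was 706 CPM in *pbp1Δ* and 451 in *pab1Δpbp1Δ*, and *HXT1* 295 and 288, so there the low-affinity side was lower through *HXT3*. The high-affinity sum was 257 ± 23, 276 ± 21 and 103 ± 26 FPKM, so the lower ratio in *pab1Δpbp1Δ* came with fewer high-affinity fragments. *HXT2* carried most of it: with *HXT6* and *HXT7* alone as the high-affinity genes, the ratio was 0.173, 0.159 and 0.118 in WT, *pbp1Δ* and *pab1Δpbp1Δ*. Since the ratio is a sum over genes chosen for their affinity, it was not tested.

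As shares of the summed FPKM of the 10 genes, *HXT3* made up 41.0% ± 0.8 in WT, 44.0% ± 1.2 in *pbp1Δ* and 48.4% ± 0.6 in *pab1Δpbp1Δ*. *HXT1* made up 23.5% ± 1.1, 19.0% ± 0.7 and 31.9% ± 3.3. *HXT2* made up 18.4% ± 0.4 and 21.4% ± 0.6 in WT and *pbp1Δ* but 6.33% ± 0.89 in *pab1Δpbp1Δ*, and *HXT4* went from 5.56% ± 0.46 and 5.26% ± 0.19 to 2.32% ± 0.35. *HXT7* stood at 10.6% ± 0.9, 9.48% ± 0.37 and 8.23% ± 2.08, with *pab1Δpbp1Δ* replicate 1 at 10.4% and the others at 7.94% and 6.30%. Of all counts in a library, the 10 genes took 0.146% ± 0.013 in WT, 0.147% ± 0.014 in *pbp1Δ* and 0.109% ± 0.012 in *pab1Δpbp1Δ*.

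**Figure D3:**
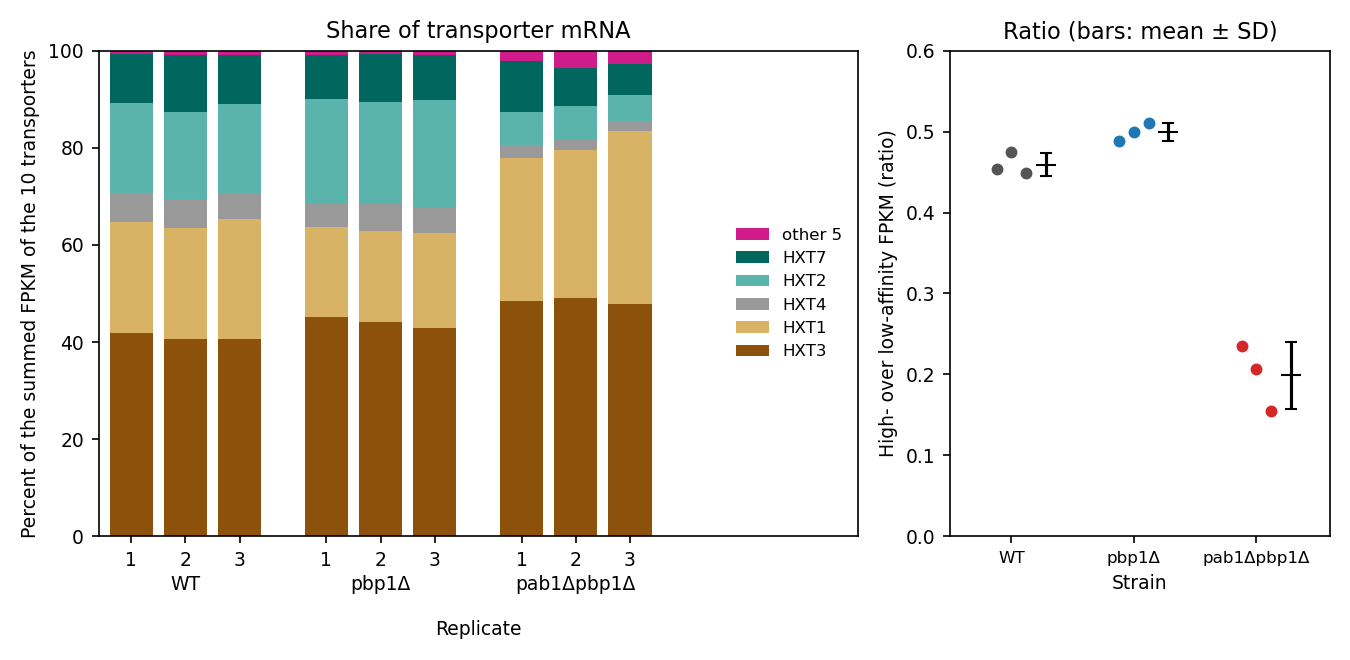
Left, percent of the summed FPKM of the 10 transporters held by each of the 5 most abundant and by the other 5 together, in each library. Right, summed FPKM of high-affinity over low-affinity genes in each library, with mean and SD; *pab1Δpbp1Δ* libraries lie between 0.154 and 0.235 and all others above 0.448.

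Loss of Pbp1 with Pab1 present was read in *pbp1Δ* against WT, which also differ by the *URA3* marker. There 1 transporter mRNA changed past the threshold, that of *HXT1*, which was lower. By edgeR 0 of the 10 genes rose and 1 fell, beside 11.6% of 6425 entries called (5.34% higher and 6.24% lower). At an unadjusted p below 0.05, *HXT7* (-0.21, 95% interval -0.40 to -0.01) and *HXT10* joined *HXT1* (3 of 10, beside 38.4% of entries), and DESeq2 on the same libraries likewise called no higher gene. *HXT1* had 407, 354 and 373 CPM in WT and 309, 302.5 and 274 in *pbp1Δ*, without overlap, and its log2 fold change was -0.35 ± 0.07 (adjusted p = 0.0061). The call was lost without WT replicate 1 or 3 (adjusted p = 0.0152 and 0.0174) and without *pbp1Δ* replicate 2 or 3 (0.0174 and 0.03), and in an edgeR fit of all 9 libraries (0.15). DESeq2 called *HXT1* lower on the same libraries as the main fit (adjusted p = 2.7e-06) but not on all 9 (0.0326). *HXT2* had 320, 263 and 267 CPM in WT, which overlapped with *pbp1Δ*, and a log2 fold change of 0.17 (95% interval -0.02 to 0.36). *HXT3*, *HXT4* and *HXT8* had 95% intervals of -0.17 to 0.29, -0.39 to 0.13 and -0.30 to 0.23, and *HXT5*, *HXT6* and *GAL2* of -0.56 to 0.12, -0.31 to 0.23 and -0.09 to 0.77. *HXT10* had a log2 fold change of 1.03 (95% interval 0.22 to 1.84, adjusted p = 0.0639) from at most 25 counts in a WT library. Libraries did not overlap for *HXT1*, *GAL2* and *HXT10*, beside 42.0% of all entries.

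In *pab1Δpbp1Δ* against WT, which share the *pab1Δpbp1Δ* libraries with the comparison above, 3 genes were higher and 3 lower, beside 43.4% of 6558 entries called (21.8% higher and 21.6% lower). *HXT2* (-2.37 ± 0.19, adjusted p = 0.00012), *HXT4* (-2.08 ± 0.23, 0.00033) and *HXT7* (-1.17 ± 0.26, 0.0066) were lower on the log2 scale. *HXT10* (3.91 ± 0.38, 0.00021), *HXT8* (1.396 ± 0.28, 0.0039) and *GAL2* (1.19 ± 0.26, 0.0061) were higher. *GAL2* had 31.0 to 36.0 expected counts in WT and 81, 121 and 104 in *pab1Δpbp1Δ*. *HXT3* (-0.60, adjusted p = 0.0101) and *HXT1* (-0.41, 0.0229) missed the threshold, and *HXT5* (0.47) and *HXT6* (0.40) did too. With the replicate number as a block, *HXT3* was called (-0.61, adjusted p = 0.0043) and *GAL2* was not (1.17, 0.0106). The calls of *HXT7*, *HXT8* and *GAL2* were each lost when any WT library or *pab1Δpbp1Δ* replicate 2 or 3 was left out, with log2 fold changes of -1.25 to -0.96, 1.19 to 1.43 and 1.04 to 1.22, and without *pab1Δpbp1Δ* replicate 1 *HXT1* and *HXT3* passed at -0.47 and -0.73. The sum of *HXT6* and *HXT7* was -1.04 ± 0.24 (adjusted p = 0.0068), and its call was lost with the same 5 libraries, at -1.12 to -0.85. Libraries did not overlap for all 10 genes, beside 69.7% of all entries, and 9 of 10 had an unadjusted p below 0.05, all but *HXT5*, beside 65.6%.

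Promoter sequences of *HXT1*, *HXT2*, *HXT3* and *HXT4* are shown because *HXT2* and *HXT4* fell together while *HXT3* fell less and *HXT1* had no detected change. Each is the 150-base stretch with the most matches to the Rgt1 motif CGGANNA, read on both strands, between 600 and 200 bases before the start codon, from RefSeq S288C (R64). Runs of 7 capitals mark this motif, and runs of 6 mark the Mig1 motif (a C or G, then a C or T, then GGGG, on either strand). Among stretches equal in Rgt1 matches, that with the most Mig1 matches was taken. The *HXT1* stretch lies at chrVIII:293018-293167 (minus strand), *HXT3* at chrIV:1165055-1165204 (minus), *HXT4* at chrVIII:289101-289250 (minus) and *HXT2* at chrXIII:287539-287688 (plus).
HXT1: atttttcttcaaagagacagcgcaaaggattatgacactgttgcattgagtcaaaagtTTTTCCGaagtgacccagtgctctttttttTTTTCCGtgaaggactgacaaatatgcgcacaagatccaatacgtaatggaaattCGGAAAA
HXT3: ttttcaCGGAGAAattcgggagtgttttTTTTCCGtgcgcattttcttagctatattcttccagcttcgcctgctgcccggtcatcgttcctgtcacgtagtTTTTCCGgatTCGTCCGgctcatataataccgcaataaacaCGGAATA
HXT4: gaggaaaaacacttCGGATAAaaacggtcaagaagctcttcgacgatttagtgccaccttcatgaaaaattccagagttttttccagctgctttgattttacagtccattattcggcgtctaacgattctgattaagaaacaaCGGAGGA
HXT2: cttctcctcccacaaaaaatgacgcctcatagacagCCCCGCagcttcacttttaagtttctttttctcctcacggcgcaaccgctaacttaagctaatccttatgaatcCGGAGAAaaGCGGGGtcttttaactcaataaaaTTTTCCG

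The *HXT3* stretch held 5 Rgt1 matches and that of *HXT1* held 3, and *HXT4* and *HXT2* had 2 each. *HXT2* also had 2 Mig1 matches there, where the choice of stretch favoured such matches. From 250 bases before to 50 after the start codon, *HXT1*, *HXT3* and *HXT4* had 2 Mig1 matches each and *HXT2* had 1. Over the 600 bases before the start codon, 8 of the 10 genes had an Rgt1 match, all but *HXT7* and *HXT10*, beside 48.0% of 6002 genes. Of the 10, 5 had at least 3 matches (*HXT1*, *HXT2*, *HXT3*, *HXT5* and *HXT8*), beside 3.72% of all genes. Mig1 matches were found in 8 of 10 genes against 27.9%, with 4 in *HXT4*, 3 each in *HXT2* and *HXT6*, and 2 each in *HXT1*, *HXT3* and *HXT7*. The stress element AGGGG was in 8 of 10 against 39.7%. In the shorter window from 250 bases before to 50 after the start codon, 2 genes had an Rgt1 match (26.5% of all genes), 4 a Mig1 match (11.7%) and 3 a stress element (21.6%). Windows can reach into neighbouring genes, a base may count for more than 1 motif, and a match is a match of letters only. *HXT10*, with the highest fold change of the 10, had no Rgt1 match within 600 bases, and *HXT8* had 5.

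Genes around the transporters, beside 34.8% of all entries called (18.0% higher and 16.7% lower), were read in the same fit of *pab1Δpbp1Δ* against *pbp1Δ*. Of 14 other hexose and sugar transporters, 12 were measured well enough to test, 6 rose, 1 fell and 5 did not pass, with a median log2 fold change of 1.25 beside 0.03 for all entries. *HXT9* went from 1.41 to 6.38 CPM (log2 fold change 2.18) and *HXT11* from 0.58 to 3.39 (2.54), but 49.4% of their 75-base windows are common to the pair. *HXT14* (2.66), *HXT15* (2.31, with 91.0% of windows shared with *HXT13*, *HXT16* or *HXT17*), the maltose permease *MAL31* (1.47) and the glycerol transporter *STL1* (2.25) also rose. Like *HXT8* and *HXT10*, *HXT9*, *HXT11*, *HXT14*, *HXT15* and *STL1* were below 10 CPM in both strains. The inositol transporter *ITR1*, at 509 CPM in *pbp1Δ*, fell by 0.96 on the log2 scale.

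Of the 6 galactose genes 5 rose and 1 did not pass, with a median log2 fold change of 1.52. The galactokinase *GAL1* had a log2 fold change of 1.47, *GAL7* and *GAL10* of the same pathway 1.93 and 1.57, the inducer *GAL3* 1.75 and the repressor *GAL80* 0.51, while the activator *GAL4* did not pass (0.06, adjusted p = 0.82). Levels were low for most of these: mean CPM went from 8.89 to 24.7 for *GAL1* and from 8.52 to 28.7 for *GAL3*. It went from 1.73 to 6.60 for *GAL7* and from 2.07 to 6.14 for *GAL10*, whereas *GAL80* went from 142 to 202. *GAL2*, the transporter of this pathway, stood at a log2 fold change of 0.87 without passing. Of 3 hexose kinases, *HXK1* (0.74) and *GLK1* (0.89) rose, and *HXK2* did not pass.

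Of 10 genes of the glucose induction pathway, 1 rose and 2 fell (median -0.15). *RGT1*, which encodes the repressor of *HXT* promoters, went from 169 to 349 CPM (log2 fold change 1.05, adjusted p = 0.0030), and its corepressor subunit *TUP1* (-0.62) and the casein kinase *YCK2* (-0.80) fell. The sensor genes *SNF3* (0.29) and *RGT2* (0.44) did not pass. Of 14 genes of the glucose repression pathway, 1 rose, the repressor *MIG3* (1.16), and 3 fell, the kinase *SNF1* (-0.56), its β subunit *GAL83* (-0.74) and the upstream kinase *ELM1* (-0.41), with a median of -0.19. Calls in both glucose lists, 3 of 10 and 4 of 14, were below the 34.8% of all entries. Of 6 genes for traffic and turnover of Hxt proteins, *ROD1* (0.71), *ROG3* (1.02) and *CSR2* (1.45), which encode adaptors of the ubiquitin ligase Rsp5, rose, whereas *RSP5* itself (-0.60) and the cargo receptor *ERV14* (-0.50) fell. In *pbp1Δ* against WT, none of the 6 lists gave more than 1 call.

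**Figure D4:**
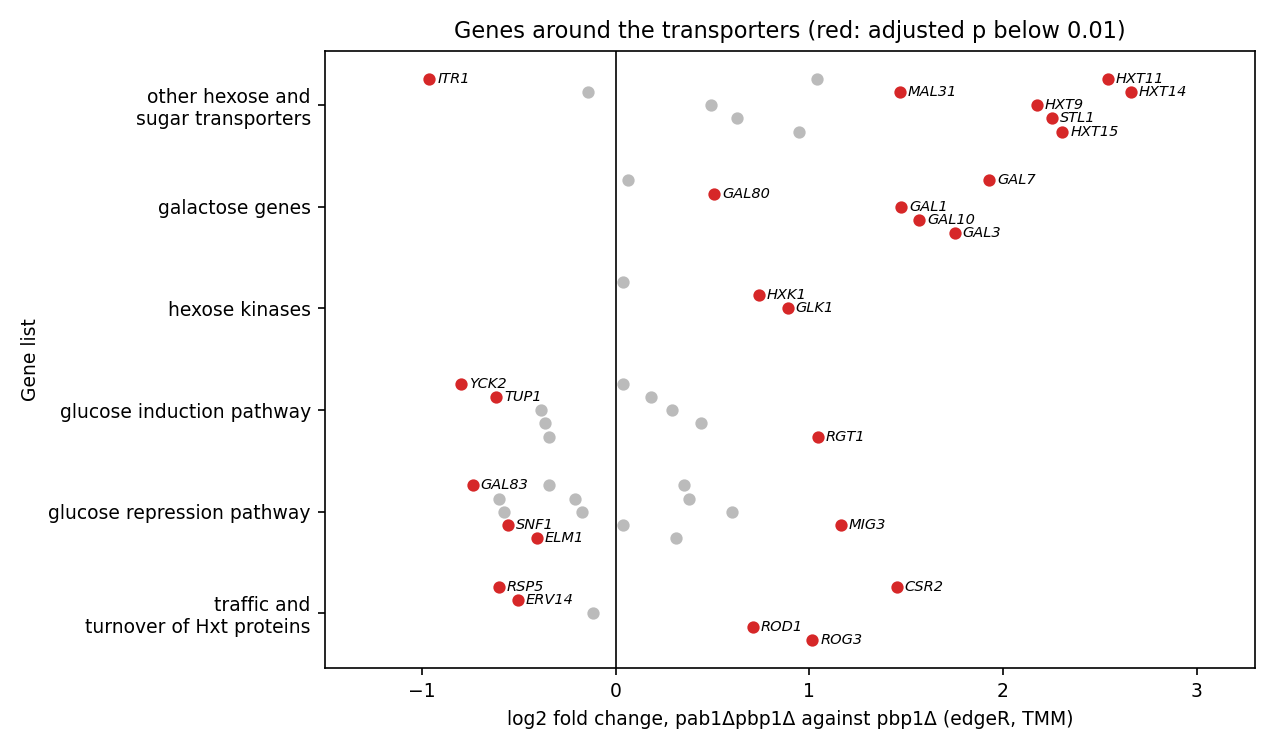
Log2 fold change in *pab1Δpbp1Δ* against *pbp1Δ* (edgeR, TMM) of each gene tested in 6 lists around the transporters, with red points and names for adjusted p below 0.01. Of the galactose genes 5 of 6 lie to the right of 0.5, and of the other transporters 6 of 12 are red above 1.4.

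For *HXT1*, *HXT3* and the sum of *HXT6* and *HXT7*, the genes whose levels followed them most closely over the 9 libraries were not other hexose transporters; the other members were not searched in this way. By the root mean square difference of centred log2 CPM among 6150 entries, *HXT1* was most like *SDH2* (0.09), *MDJ1* (0.09) and *HAP2* (0.09), and *HXT3* most like *HEM14* (0.08), *HMG1* (0.08) and *PMT3* (0.08). The sum of *HXT6* and *HXT7* was most like *RPS24A* (0.10), *RPS8B* (0.11) and *PTR2* (0.11), among 6149 entries. *HXT3* stood 2243rd in likeness to *HXT1*, at 0.27, and *HXT2* 5992nd, at 1.09. *HXT3* was the nearest transporter to the sum of *HXT6* and *HXT7*, at rank 384 and 0.25. These are descriptions over 9 libraries that share 3 strains.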

How the data were processed

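Of each strain 3 RNA-Seq libraries were used; the expected counts were deposited by the authors as RSEM 1.3.0 estimates per transcript from Bowtie 1.0.0 alignments of single-end reads of 75 cycles (R64, per the submitters' processing notes) and are not normalized. The authors also deposited FPKM values of that RSEM run. Tables per locus served as an alternative. The members and gene lists were chosen with earlier results of these data known.

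Counts were rounded and every pairwise comparison was fitted to the 6 libraries concerned in R 4.3.3 with edgeR 4.0.16 (TMM, filterByExpr with a minimum count of 10, robust quasi-likelihood test, Benjamini-Hochberg over all entries, adjusted p below 0.01), and the procedure was tested on simulated data with 200 changed genes. DESeq2 1.42.0 and limma 3.58.1 (pseudocounts of 1 and 0.1), other scalings, filters and thresholds, and leaving out each library were alternatives. Genes named were the members, the deleted genes, list genes that passed in *pab1Δpbp1Δ* against *pbp1Δ*, and the 3 nearest in pattern to *HXT1*, *HXT3* and *HXT6* with *HXT7*. Sequence windows and motifs were read from the RefSeq S288C genome of the same build, while the strains are W303, in Python 3.11.15. The 600-base motif window was added after the shorter one had been seen.

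Same-numbered libraries of *pab1Δpbp1Δ* and WT deviated together from their strain means across genes (r = 0.15, 0.20 and 0.18), so blocked calls are given beside that comparison where they differ. In the other pairs of strains the correlation was at most 0.1 for at least 1 number. For replicates 1 to 3 it was 0.39, -0.07 and 0.06 between WT and *pbp1Δ*, and 0.12, -0.05 and 0.09 between *pbp1Δ* and *pab1Δpbp1Δ*.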

Additional observations from a re-analysis of the deposited data

How the results depend on the processing

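Over settings other than leaving out a library, 112 of 138 fold changes of single genes in *pab1Δpbp1Δ* against *pbp1Δ* kept direction and side of the threshold, as did 121 of 137 in *pbp1Δ* against WT and 117 of 139 in *pab1Δpbp1Δ* against WT; with 1 library left out it was 47, 50 and 43 of 60. *HXT2*, *HXT4* and *HXT10* kept their calls in *pab1Δpbp1Δ* against *pbp1Δ* and against WT under every alternative run. The cause of the changes below was not tested, other than by a setting's own construction. With entries of mean FPKM below 1 left out, *GAL2* had no value in any comparison, *HXT5* in *pab1Δpbp1Δ* or WT against *pbp1Δ*, and *HXT10* in *pbp1Δ* against WT.

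In *pab1Δpbp1Δ* against *pbp1Δ*, *HXT1* turned to 0.15 by upper quartile and to 0.30 by limma on FPKM with either pseudocount (0.30 also with entries of mean FPKM of at least 1), and lay between -0.12 and 0.0633 with 1 library left out. The sum of *HXT6* and *HXT7* passed by DESeq2 on the pair (-0.84) and on all 9 libraries (-0.83), in edgeR on all 9 (-0.83), with the replicate block (-0.89) and at 0.05 (-0.83), and ranged from -1.17 to -0.64 with 1 library left out. The number of higher genes was 5 by DESeq2 on all 9 libraries and at 0.05, and 1 to 4 with 1 library left out.

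In *pbp1Δ* against WT, the number of lower genes was 0 by upper quartile, DESeq2 on all 9 libraries, edgeR on all 9, a fold threshold, and limma with each pseudocount and filter, 2 with the replicate block (*HXT7* joined), and 0 to 1 with 1 library left out. The blocked sum of *HXT6* and *HXT7* passed at -0.20. Values near 0 changed sign: *HXT6* to 0.00019 by upper quartile and 0.01 by limma (0.0115 and 0.0135 with the pseudocounts), and *HXT8* to 0.0045, 0.0113 and 0.0157 likewise. With 1 library left out, *HXT6* lay between -0.17 and 0.0182, *HXT8* between -0.0893 and 0.0404 and *HXT3* between -0.0123 and 0.15. In *pbp1Δ* against WT and *pab1Δpbp1Δ* against *pbp1Δ*, same-numbered libraries did not deviate together for every number, though WT 1 and *pbp1Δ* 1 did (r = 0.39). There the block changed the calls of *HXT7* and of the sum alone.

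In *pab1Δpbp1Δ* against WT, the number of lower genes was 5 by DESeq2 on the pair and on all 9 libraries, in edgeR on all 9 and at 0.05, and 2 to 5 with 1 library left out; that of higher genes was 1 to 3. The sum of *HXT6* and *HXT7* was not called by upper quartile (-0.81) or limma (-0.68, -0.69 and -0.68 with the filter), and ranged from -1.37 to -0.85. *HXT1* was 0.0042 by limma on FPKM with each pseudocount and filter.

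The ratio of high-affinity to low-affinity FPKM was 0.422 in WT and 0.461 in *pbp1Δ* with *HXT4* among the low-affinity genes, 0.483 in *pbp1Δ* by TMM counts, and 0.173, 0.159 and 0.118 in WT, *pbp1Δ* and *pab1Δpbp1Δ* with *HXT6* and *HXT7* alone. Depth limits *GAL2* and *HXT10* most, with as few as 14 counts in a library.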

Other observations

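The *pab1Δpbp1Δ* libraries differed among themselves more than those of the other strains. For 7 of the 10 genes (*HXT2*, *HXT3*, *HXT4*, *HXT5*, *HXT7*, *HXT8* and *GAL2*) replicate 1 was the *pab1Δpbp1Δ* library nearest to the *pbp1Δ* mean in CPM. Replicate 3 was nearest for the other 3 (*HXT1*, *HXT6* and *HXT10*), and replicate 2 for 0. The same count was not made over all entries, so whether it is particular to the transporters is not known. In the summed FPKM of the MATa markers, by contrast, replicate 1 was the lowest, at 1964, and so the farthest from *pbp1Δ* (4092 to 4777). *HXT10* went against those 7 genes, with its highest CPM, 5.01, in replicate 1.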
